A study of Mus musculus with 27 samples.

Results

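Axon guidance ligands and receptors were represented by 42 genes, 22 that encode ligands and 20 that encode receptors. The ligands were 12 semaphorins, 3 slits, 5 ephrins and 2 netrins, and the receptors were 7 plexins, 2 neuropilins, 2 robos, 8 Eph receptors and *Dcc*. Members were taken by name, by a rule that uses no measured value, though earlier results of these data were known when the set was made. They were 42 of the 22367 coding genes of the GENCODE vM1 annotation on mouse assembly NCBIM37 (mm9). Each gene was given the H3K4-methylated regions in its body or within 5 kb of one of its transcription start sites (TSS). This gave 1688 of the 358833 regions that the authors merged from their H3K4me1, H3K4me2 and H3K4me3 peaks.

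The study asked where loss of KMT2D from heart muscle lowers H3K4 methylation, and performed ChIP-Seq for the 3 marks on E11.5 (embryonic day) mouse hearts. Control hearts were *Tnnt2::Cre;Kmt2d fl/+* and mutant hearts were *Tnnt2::Cre;Kmt2d fl/fl*, all on the C57BL/6 strain with 1 copy of the *Rosa26* mTmG Cre reporter. A replicate was a pool of 30 hearts, there were 3 such pools per genotype, and each pool gave an input and 1 library per mark, or 24 heart libraries. A further 3 KMT2D ChIP-Exo libraries from cardiomyocytes derived from E14 Tg(Nkx2-5-EmGFP) mouse embryonic stem cells were not analysed here. The control thus also carries Cre and 1 floxed allele. The *Tnnt2* promoter drives Cre in heart muscle, whereas whole hearts were used, so endothelium, endocardium, epicardium and neural crest derivatives kept *Kmt2d* in both genotypes. In such tissue, fewer cells of a type and less of a mark per cell cannot be told apart.

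The deposited lists give positions only. A region "in the H3K4me1 list" or "in the H3K4me2 list" is a merged region that the authors called lower for that mark in mutant hearts, and it is referred to below as decreased. No read count, fold change or replicate value stands behind a region in these lists, so depth is unknown, and the spread between pools of hearts could not be measured. A region outside both lists may still have changed. Wide regions are in the lists more often than narrow ones, so members were set beside other coding genes of like region width. Intervals given for shares are 95% Wilson intervals, which treat genes or regions as independent draws and cover counting error only. Merged regions lay over a TSS of 8 of 8 heart muscle markers, such as *Tnnt2* and *Myh6*, 5 of 5 endothelial, 4 of 4 epicardial and 6 of 6 neuronal markers, and 2 of 5 liver markers. Median summed region width was 19620 bp for the heart muscle markers, 23040 bp for the endothelial, 15300 bp for the epicardial, 18390 bp for the neuronal and 2980 bp for the liver markers. The neuronal genes are longer, with a median of 108582 bp against 8826.5 bp for the muscle genes, and their widest regions were narrower, with medians of 4520 bp and 16060 bp.

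Guidance cues steer growing axons by attracting or repelling them, and the same ligand-receptor pairs act outside the nervous system. Semaphorins signal through plexins, with neuropilins as co-receptors for the secreted class 3 members, slits signal through robos, ephrins through Eph receptors, and netrin-1 through DCC. In the embryonic heart these systems are known for septation of the outflow tract, the guidance of neural crest cells and sympathetic nerves, and the separation of arterial from venous endothelium. H3K4me3 marks promoters, H3K4me2 marks promoters and enhancers, H3K4me1 marks mainly enhancers, and KMT2D is a methyltransferase that adds such groups.

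Every member was marked in the E11.5 heart, and most carried long stretches of methylated chromatin. A decreased region of either list lay at 19 of the 42 genes. Of coding genes with a region, 28.7% had decreased H3K4me2, 7.08% had decreased H3K4me1 and 2.86% had both. No value at like region width was computed for this count, so it is not read as high or low. The H3K4me2 list held 15 regions at 13 genes (31.0%, against 28.7% of coding genes with a region). The H3K4me1 list held 10 regions at 8 genes (19.0%, against 7.08%, and 22.3% at like region width). No member region was in both lists, against 0.0479% of all merged regions. Decreased H3K4me2 lay mainly over promoters, among them those of *Nrp1*, *Efnb2*, *Plxna2*, *Plxna4*, *Epha4* and *Ephb3*. Decreased H3K4me1 lay mainly inside genes, such as *Plxna4*, *Slit1*, *Slit3* and *Ephb2*. Relative to other coding genes with as much marked sequence (47.3%), decreased H3K4me2 was found at fewer members. That value lies just above the members' interval of 19.1% to 46.0%. The values at like gene length (38.9%) and at like width of the widest region (43.1%) lie inside it.

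The sequences below show the kinds of place at which decreased regions were found. Each is read 5′ to 3′ on the strand of its gene from NCBIM37, with CG dinucleotides in capitals. First are the 300 bases before the 5′ end of *Nrp1* (chr8:130882673-130882972, plus strand) and *Efnb2* (chr8:8661240-8661539, minus strand), the members with the widest decreased regions.
Nrp1 promoter: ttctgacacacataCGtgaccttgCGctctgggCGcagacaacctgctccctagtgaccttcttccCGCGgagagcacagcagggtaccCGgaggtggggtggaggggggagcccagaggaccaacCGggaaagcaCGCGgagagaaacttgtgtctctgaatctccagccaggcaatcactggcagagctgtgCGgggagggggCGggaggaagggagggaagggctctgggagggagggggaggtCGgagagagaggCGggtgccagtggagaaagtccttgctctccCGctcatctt
Efnb2 promoter: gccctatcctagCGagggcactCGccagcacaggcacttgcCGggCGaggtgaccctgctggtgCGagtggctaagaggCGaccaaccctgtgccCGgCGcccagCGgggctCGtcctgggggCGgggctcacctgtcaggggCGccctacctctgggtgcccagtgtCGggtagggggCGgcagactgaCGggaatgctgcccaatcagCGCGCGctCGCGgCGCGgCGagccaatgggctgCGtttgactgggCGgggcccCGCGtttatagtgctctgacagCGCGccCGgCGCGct
They hold 14 and 32 CG dinucleotides, and GC content is 63.3% and 71.7%. Both windows lie in single regions decreased for H3K4me2.

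*Plxna4* carried both kinds of decrease in separate regions, so its promoter (chr6:32538193-32538492, minus strand), which lies in the H3K4me2 list, is set beside the middle of the intronic region in the H3K4me1 list (chr6:32292096-32292395, minus strand).
Plxna4 promoter: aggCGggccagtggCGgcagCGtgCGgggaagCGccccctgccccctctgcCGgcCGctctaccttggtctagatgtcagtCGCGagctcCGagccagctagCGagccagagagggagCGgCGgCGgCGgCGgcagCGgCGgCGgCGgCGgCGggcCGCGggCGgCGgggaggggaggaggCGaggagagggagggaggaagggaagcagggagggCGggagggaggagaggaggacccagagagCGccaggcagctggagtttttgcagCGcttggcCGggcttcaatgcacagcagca
Plxna4 intron: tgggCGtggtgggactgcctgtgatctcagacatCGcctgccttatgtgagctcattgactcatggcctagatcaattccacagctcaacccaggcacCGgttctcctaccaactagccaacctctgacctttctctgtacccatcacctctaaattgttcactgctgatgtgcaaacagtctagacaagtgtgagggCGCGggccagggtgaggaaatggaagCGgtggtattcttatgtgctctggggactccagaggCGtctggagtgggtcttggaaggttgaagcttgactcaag
The promoter window holds 31 CG dinucleotides and the intronic window 7, with a GC content of 73.7% and 53.3%. The promoter window includes a run of the repeated triplet CGG, read in the printed strand.

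*Epha4* carried decreased H3K4me2 at its promoter (chr1:77511664-77511963, minus strand) and again in an intron (chr1:77437406-77437705, minus strand, the middle of the region), so that 1 mark can be followed between both kinds of place.
Epha4 promoter: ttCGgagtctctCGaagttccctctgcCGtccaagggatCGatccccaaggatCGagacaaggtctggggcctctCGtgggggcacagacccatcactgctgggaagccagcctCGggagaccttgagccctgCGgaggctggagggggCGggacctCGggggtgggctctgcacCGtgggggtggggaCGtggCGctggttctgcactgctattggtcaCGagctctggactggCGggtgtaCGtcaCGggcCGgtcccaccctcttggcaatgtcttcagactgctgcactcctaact
Epha4 intron: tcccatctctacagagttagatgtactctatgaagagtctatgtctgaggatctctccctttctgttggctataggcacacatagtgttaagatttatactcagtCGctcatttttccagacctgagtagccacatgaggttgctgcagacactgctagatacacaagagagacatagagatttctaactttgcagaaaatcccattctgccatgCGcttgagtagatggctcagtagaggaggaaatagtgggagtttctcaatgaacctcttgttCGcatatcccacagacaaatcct
Here 18 CG dinucleotides stand against 3, and GC content is 64.7% against 43.3%.

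Decreased regions of *Slit3* and *Ntn1* lay away from promoters and included some of the narrowest in the merged list. Shown are the middle of a *Slit3* intronic region in the H3K4me1 list (chr11:34967126-34967425, plus strand), the whole *Slit3* region in the H3K4me2 list (chr11:35002466-35002565, plus strand) and a whole *Ntn1* region in the H3K4me1 list (chr11:68094846-68094905, minus strand).
Slit3 intron, H3K4me1: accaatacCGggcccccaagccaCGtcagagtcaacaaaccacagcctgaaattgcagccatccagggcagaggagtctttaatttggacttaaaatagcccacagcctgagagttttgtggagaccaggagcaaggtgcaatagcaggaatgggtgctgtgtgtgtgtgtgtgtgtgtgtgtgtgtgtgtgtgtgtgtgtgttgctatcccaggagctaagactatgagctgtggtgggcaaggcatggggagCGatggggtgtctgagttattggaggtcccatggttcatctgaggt
Slit3 intron, H3K4me2: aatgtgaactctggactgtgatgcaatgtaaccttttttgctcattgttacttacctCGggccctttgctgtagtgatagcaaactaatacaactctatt
Ntn1 intron, H3K4me1: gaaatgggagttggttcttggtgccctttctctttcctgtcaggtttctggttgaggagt
They hold 3, 1 and 0 CG dinucleotides. The first window contains a long TG repeat. The *Ntn1* region is 60 bp wide, the narrowest that the merged list holds, and the *Slit3* region in the H3K4me2 list is 100 bp wide.

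All 42 members had at least 1 TSS inside a merged region (100%, interval 91.6% to 100%), against 70.4% of all coding genes. The number of annotated TSS per gene was not matched in this comparison. Of 199 annotated TSS of the members, 149 lay inside a region, and at 25 members every TSS did. No share over coding genes was computed for these 2 counts. Among coding genes with a region, the 5′ end of the gene itself lay in a region at 15066 of 20025, and among the members at 41 of 42. The exception was *Sema4a*, which encodes a membrane semaphorin and had 10 of its 17 annotated TSS inside.

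Members carried a median of 33 regions, a summed region width of 28870 bp (quartiles 19220 and 50645 bp) and a widest region of 6920 bp. Over the 20025 coding genes with a region, the medians were 5 regions, 6520 bp (quartiles 2960 and 12820 bp) and 3480 bp. Members are long genes, with a median length of 144900 bp against 18272 bp, and per 100 kb of gene they carried 24.5 regions against 27.7. In summed width 41 of the 42 members lay above the coding median and 22 lay in decile 10 of coding genes. No region was shared between members, and 22 of the 1688 regions (1.30%) were also given to another coding gene.

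**Figure D1:**
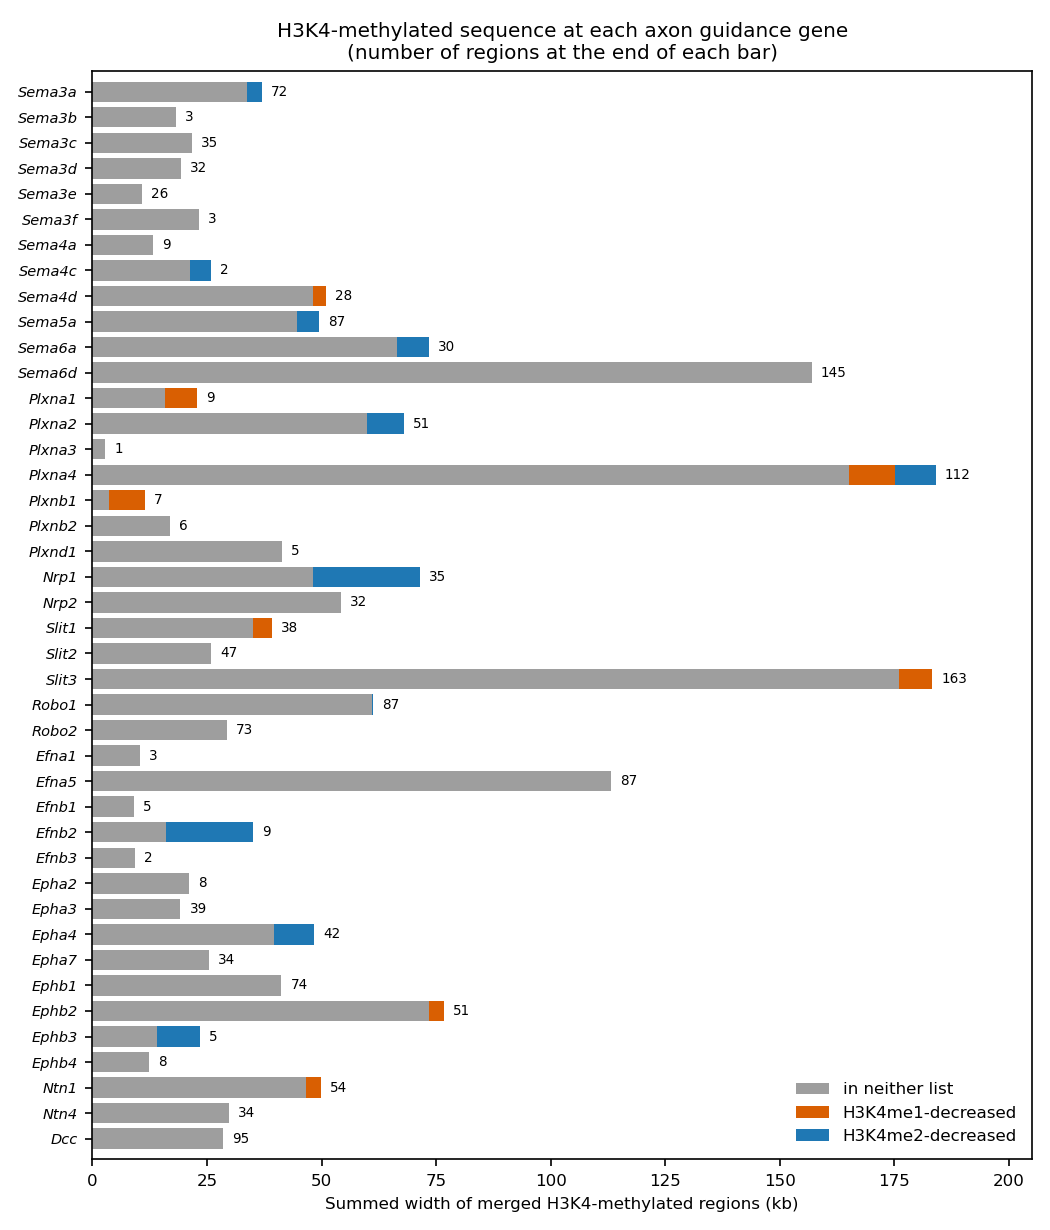
Summed width in kb of the merged H3K4-methylated regions at each of the 42 genes, with the part in the H3K4me1 list in orange, the part in the H3K4me2 list in blue and the rest in grey; the number of regions stands at the end of each bar. *Plxna4* (183960 bp) and *Slit3* (183260 bp) have the longest bars, *Plxna3* has 1 region, and most of the marked sequence is in neither list at every gene but *Efnb2* and *Plxnb1*.

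The 3 members with the most marked sequence were *Plxna4*, *Slit3* and *Sema6d*. *Plxna4*, a receptor for class 3 and class 6 semaphorins, had 112 regions that sum to 183960 bp. *Slit3*, a secreted repellent bound by robos, had 163 regions and 183260 bp. *Sema6d*, a membrane semaphorin bound by plexin-A1, had 145 regions and 156900 bp, of which none was in either list. The next gene, *Efna5* with 87 regions and 113120 bp, had none in either list as well. The 3 with the least were *Plxna3* (chrX, 1 region of 2760 bp), *Efnb1* (chrX, 5 regions and 9040 bp) and *Efnb3* (chr11, 2 regions and 9280 bp), and these also had no decreased region. A large amount of marked sequence thus went together with decreased regions at *Plxna4* and *Slit3* but not at *Sema6d* and *Efna5*.

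A decreased H3K4me2 region lay at 13 of the 42 members (31.0%, interval 19.1% to 46.0%), near the 28.7% of all coding genes with a region. Coding genes in the same deciles of summed region width had such a region in 47.3% of cases, which corresponds to 19.9 of 42 genes. Coding genes in the same deciles of gene length had it in 38.9% of cases, or 16.3 genes. The members' share thus lay below both reference values. The first of these lies just above the upper bound of the members' interval and the second lies inside it. With deciles of the widest region in place of summed width the value was 43.1%, which also lies inside the interval.

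For H3K4me1, 8 of 42 members had a decreased region (19.0%, interval 9.98% to 33.3%), against 7.08% of coding genes. The corresponding value was 22.3% (9.37 genes) at like region width and 17.3% (7.25 genes) at like gene length, and with deciles of the widest region in place of summed width it was 11.9%. The members' share lay below the first of these and above the others, and all 3 lay inside its interval. Both lists held regions of 2 members, *Plxna4* and *Slit3* (4.76%), against 2.86% of coding genes and 11.1% (4.67 genes) at like region width.

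**Figure D2:**
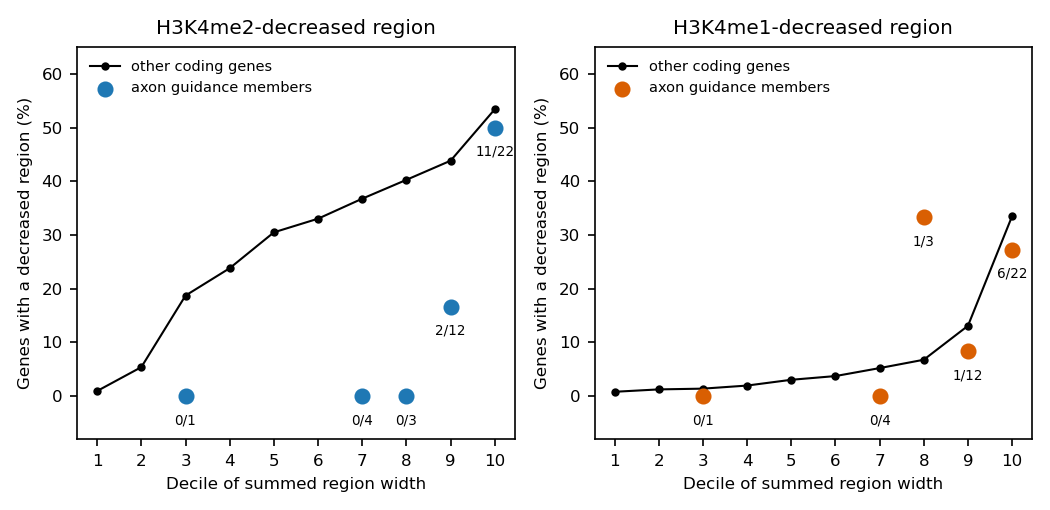
Percentage of genes with a decreased H3K4me2 (left) or H3K4me1 (right) region against the decile of summed region width over coding genes, for other coding genes (black line) and for the members in each decile (coloured points, with the number called of the number in that decile). In the H3K4me2 panel the members lie below the line in all 5 deciles they occupy; in the H3K4me1 panel they lie below it in deciles 3, 7, 9 and 10 and above it in decile 8, where 1 of 3 members was called.

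The difference for H3K4me2 lay mainly below decile 10 of region width. In decile 10, 11 of 22 members were called, against 53.4% of other coding genes. In decile 9, 2 of 12 members, *Sema4c* and *Ephb3*, were called, against 43.8%. None of the remaining 8 members was called, where the shares of other genes in the deciles that hold 7 of them were 36.8% and 40.3%. For H3K4me1, 6 of 22 members were called in decile 10 against 33.5%, and 1 of 12 in decile 9 against 13.1%.

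Counted over regions, 15 of the 1688 member regions were in the H3K4me2 list (0.889%, interval 0.539% to 1.46%), against 1.87% of all merged regions. In the H3K4me1 list were 10 (0.592%, interval 0.322% to 1.09%), against 0.761%. Member regions were wider than merged regions in general, with a median of 440 bp against 320 bp, but 80.5% of them lay in introns more than 5 kb from a TSS of the gene, against 57.5% for all coding genes. With place and width class taken into account, other coding genes gave 31.0 regions for H3K4me2 and 17.9 for H3K4me1.

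A TSS lay in a decreased H3K4me2 region at 9 members (21.4%, interval 11.7% to 35.9%), against 29.2% of coding genes with a TSS in a region and 36.3% (15.3 genes) at like region width. These were *Sema3a*, *Sema5a*, *Sema6a*, *Plxna2*, *Plxna4*, *Nrp1*, *Efnb2*, *Epha4* and *Ephb3*. A TSS lay in a decreased H3K4me1 region at 1 member, *Plxnb1* (2.38%), against 1.29% of coding genes and 3.25% at like region width.

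**Figure D3:**
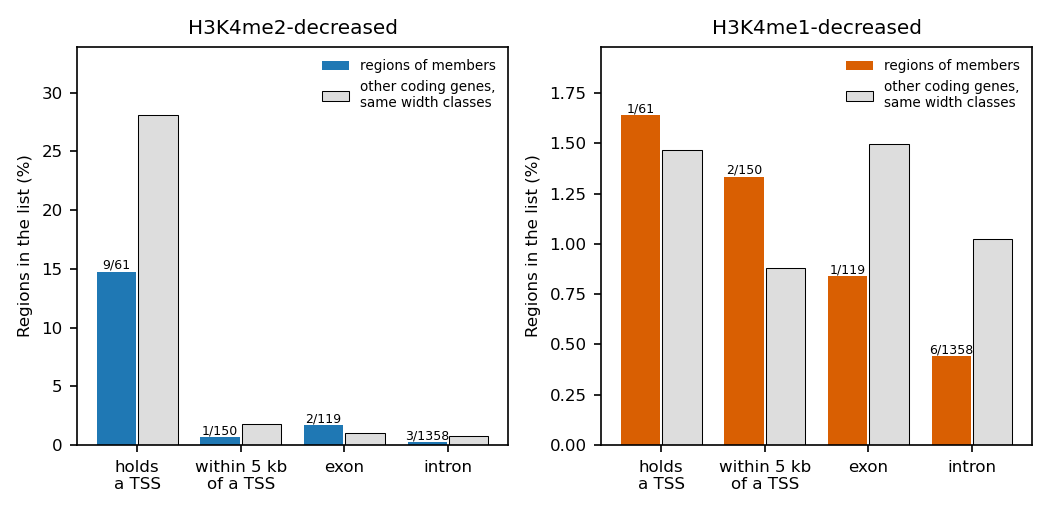
Percentage of regions in the H3K4me2 list (left) and in the H3K4me1 list (right) by place in the gene, for member regions (coloured, with the number called of the number of regions) and for regions of other coding genes in the same width classes (grey); both axes start at 0 and have different scales. Of 61 member regions over a TSS, 9 are in the H3K4me2 list (14.8%) against 28.1% for the grey bar, and of 1358 intronic regions 6 are in the H3K4me1 list (0.442%) against 1.02%.

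Members' regions over a TSS were called for H3K4me2 in 9 of 61 cases (14.8%), and regions of other coding genes of the same width classes in 28.1% (17.1 regions). Among TSS regions of at least 8000 bp, 4 of 16 member regions were called, against 41.6% of other regions. From 4000 to 8000 bp it was 4 of 22 against 33.2%, and from 2000 to 4000 bp 1 of 11 against 24.1%. Within 5 kb of a TSS, 1 of 150 member regions was in the H3K4me2 list (2.65 regions at like width) and 2 were in the H3K4me1 list (1.32). Of 1358 intronic regions, 3 were in the H3K4me2 list (0.221%, against 0.735% at like width) and 6 in the H3K4me1 list (against 13.9 regions at like width). Over a TSS lay 9 of the 15 decreased H3K4me2 regions, against 72.0% of those of all coding genes, and 1 of the 10 decreased H3K4me1 regions, against 11.2%. The members' lists were thus placed much as those of coding genes in general.

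**Figure D4:**
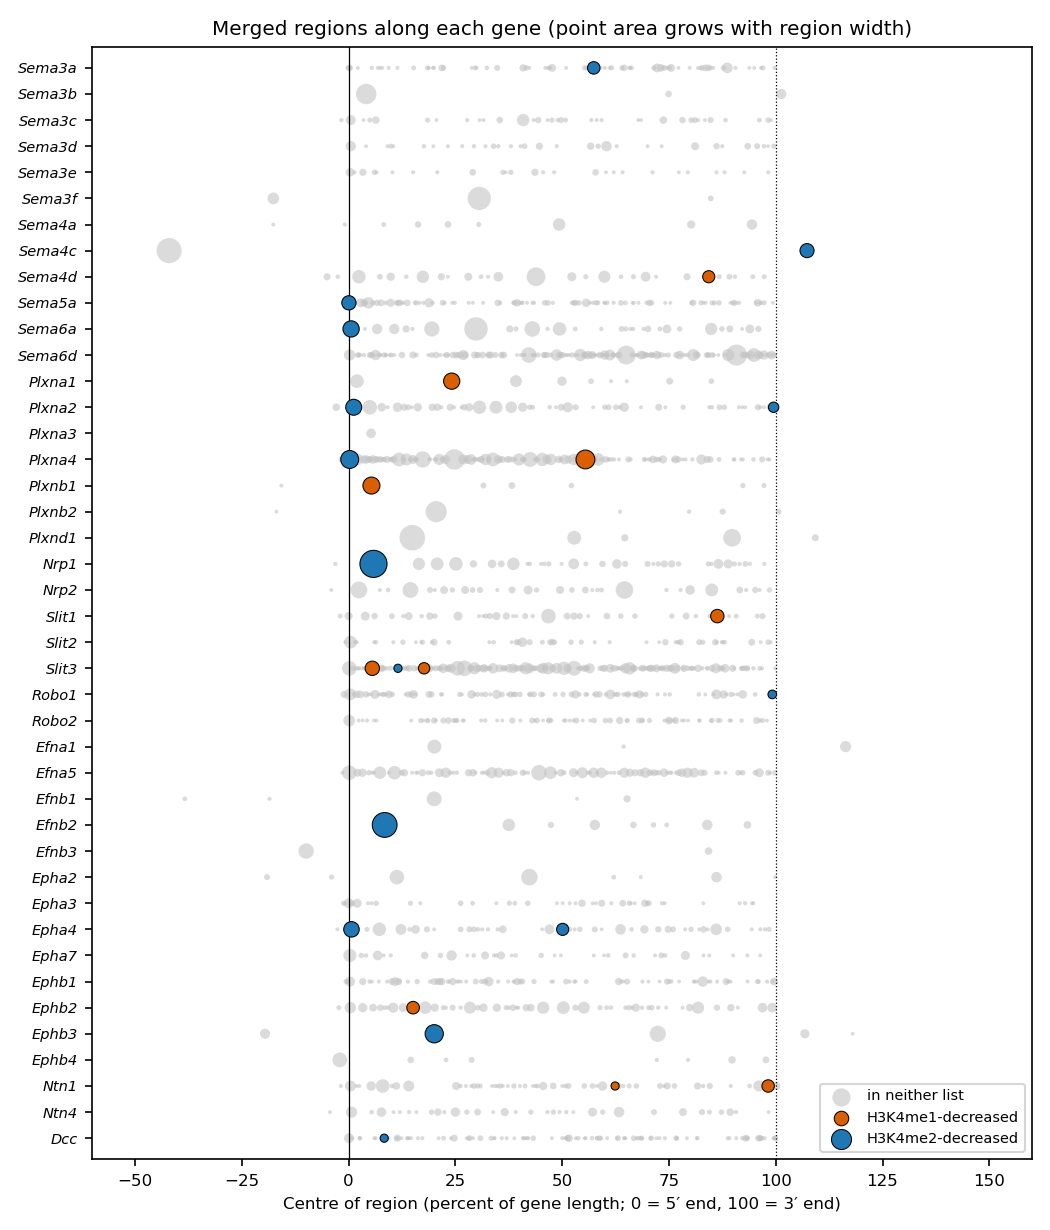
Position of every merged region along its gene, as the percentage of gene length from the 5′ end (0) to the 3′ end (100); point area grows with region width, blue regions are in the H3K4me2 list, orange regions in the H3K4me1 list and grey regions in neither. Blue points lie mostly at or near the 5′ end, with exceptions inside *Sema3a*, *Slit3*, *Epha4* and *Dcc* and at the 3′ end of *Sema4c*, *Plxna2* and *Robo1*, whereas orange points, apart from *Plxnb1*, lie along the gene bodies.

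Among the ligands, the 12 semaphorins had 472 regions. Decreased H3K4me2 was found at 4 of them (5.62 genes at like region width) and decreased H3K4me1 at 1 (2.45 genes). Of the 6 class 3 semaphorins, which are secreted, only *Sema3a* had a decreased region (2.65 genes at like region width for H3K4me2 and 0.910 for H3K4me1). *Sema3a*, a repellent of sympathetic and sensory axons, carried 72 regions that sum to 36940 bp. Its decreased H3K4me2 region of 3160 bp (chr5:13397726-13400885) held an internal TSS at 57.4% of the gene's length. The region over the 5′ end of *Sema3a* was 980 bp wide, the narrowest 5′-end region among the members, and was in neither list. *Sema3b* and *Sema3f*, both class 3 repellents, had 5′-end regions of 13920 and 18160 bp in neither list. *Sema3c*, required for outflow tract septation, had 35 regions that sum to 21700 bp, and *Sema3d*, which acts on neural crest and endothelial cells, had 32 that sum to 19340 bp. *Sema3e*, the ligand of plexin-D1, had 26 regions and 10820 bp, the least of the semaphorins. None of these 3 genes had a decreased region.

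Of the 6 membrane-bound semaphorins, 3 had decreased H3K4me2 (2.97 at like region width) and 1 had decreased H3K4me1 (1.54). *Sema5a*, which carries thrombospondin repeats, had decreased H3K4me2 over its 5′ end (4800 bp, chr15:32172446-32177245), in a region that also holds the TSS of the small nucleolar RNA gene *Snord123*. *Sema6a*, a ligand of plexins A2 and A4, had decreased H3K4me2 over its 5′ end (6920 bp, chr18:47524306-47531225), whereas its widest region of 18520 bp was in neither list. The decreased H3K4me2 region given to *Sema4c*, a ligand of plexin-B2, lay over its 3′ end (4620 bp, chr1:36602466-36607085) and holds the TSS of the neighbouring gene *Ankrd39*, so the call cannot be assigned to either gene. The 5′-end region of *Sema4c*, 21300 bp wide, was in neither list. *Sema4d*, the ligand of plexin-B1, had decreased H3K4me1 in a region of 2840 bp over coding exons (chr13:51809706-51812545), 178 bp from an internal TSS. *Sema4a*, with 9 regions, and *Sema6d* had none.

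The 3 slits had 248 regions, with decreased H3K4me2 at 1 gene (1.50 at like region width) and decreased H3K4me1 at 2 (0.798). At *Slit3*, regions of 4860 bp (chr11:34964846-34969705) and 2240 bp (chr11:35037346-35039585) were in the H3K4me1 list, and the 100-bp region printed above lay between them and was in the H3K4me2 list. All 3 lay in introns within the first 17.7% of the gene, and the region over the 5′ end of *Slit3* (6980 bp) was in neither list. At *Slit1*, a repellent best known from the nervous system, decreased H3K4me1 was found in an intronic region of 4000 bp at 86.3% of the gene's length (chr19:41692366-41696365). *Slit2* had 47 regions that sum to 25920 bp and no decreased region. The slits thus had decreased regions inside 2 of 3 genes and none over a promoter.

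The 5 ephrins had 106 regions, with decreased H3K4me2 at 1 gene (2.17 at like region width) and decreased H3K4me1 at none (0.826). *Efnb2*, the transmembrane ligand that marks arterial endothelium, had 9 regions that sum to 35100 bp. Of these, the 18960-bp region over its 5′ end (chr8:8648066-8667025) was decreased for H3K4me2 and makes up most of that width. The region reaches 5786 bp upstream and 13173 bp into the gene. It also holds the TSS of *4921522P10Rik* and lies within reach of *Arglu1*, so the call cannot be assigned to *Efnb2* alone. The 5′-end regions of *Efna1* (6340 bp), *Efna5* (6980 bp), *Efnb1* (7200 bp) and *Efnb3* (7740 bp), all narrower, were in neither list. The first 2 encode ephrins anchored by a lipid and the others transmembrane ephrins.

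The 2 netrins had 88 regions. *Ntn1*, a secreted cue that attracts or repels by receptor, had decreased H3K4me1 in a 3080-bp region over exons near its 3′ end (chr11:68024726-68027805, 98.2% of the gene's length) and in the 60-bp intronic region printed above. *Ntn4*, a basement membrane netrin, had 34 regions that sum to 29820 bp and no decreased region. Neither netrin had decreased H3K4me2 (1.07 genes at like region width), and the 5′-end regions of *Ntn1* (3660 bp) and *Ntn4* (3840 bp) were close to the coding median of 3640 bp.

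Among the receptors, the 7 plexins had 191 regions, with decreased H3K4me2 at 2 genes (3.06 at like region width) and decreased H3K4me1 at 3 (1.35). *Plxna2*, a semaphorin receptor of cardiac neural crest, had decreased H3K4me2 over its 5′ end (6580 bp, chr1:196445066-196451645) and again in a 1480-bp region at 99.5% of its length (chr1:196641346-196642825). *Plxna4* had decreased H3K4me2 over its 5′ end (8880 bp, chr6:32532646-32541525). It also had decreased H3K4me1 in an intronic region of 10000 bp (chr6:32287246-32297245), whose centre lies 245947 bp from the TSS. *Plxna1*, the receptor of *Sema6d*, had decreased H3K4me1 in its widest region, 6900 bp over coding exons (chr6:89297986-89304885) and 2826 bp from a TSS. *Plxnb1*, the receptor of *Sema4d*, was the only member with decreased H3K4me1 over a TSS (7780 bp, chr9:108995366-109003145). That region also holds the TSS of *Gm7628* and was given to *Ccdc51* as well. The ligand *Sema4d* and its receptor *Plxnb1* thus each had 1 region in the H3K4me1 list, though the call at the second cannot be assigned to *Plxnb1* alone. Whether ligands and their receptors tend to share a list was not tested. *Plxnd1*, which is required in endothelium for outflow tract development, had 5 regions that sum to 41400 bp. Its 5′-end region of 22140 bp, the second widest among the members, was in neither list, nor was that of *Plxnb2* (14960 bp) or the only region of *Plxna3*.

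The 2 neuropilins, co-receptors of class 3 semaphorins and of vascular endothelial growth factor, had 67 regions. *Nrp1* had the widest decreased region of all members. It spans 23200 bp (chr8:130879886-130903085), from 3087 bp upstream to 20112 bp into the gene, was decreased for H3K4me2 and also holds the TSS of the microRNA gene *Mir1903*. *Nrp2*, with 32 regions and a 5′-end region of 9340 bp, had no decreased region. The 2 robos, receptors of slits, had 160 regions. At *Robo1*, a coding-exon region of 340 bp at 99.2% of its length (chr16:73043066-73043405) was in the H3K4me2 list, and *Robo2*, with 73 regions, had none. The 5′-end regions of *Robo1* (4520 bp) and *Robo2* (4320 bp) were in neither list.

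The 8 Eph receptors had 261 regions, with decreased H3K4me2 at 2 genes (3.75 at like region width) and decreased H3K4me1 at 1 (1.60). *Epha4*, which binds ephrins of both classes, had decreased H3K4me2 over its 5′ end (6080 bp, chr1:77507646-77513725) and in a 2820-bp intronic region 74108 bp from the TSS (chr1:77436146-77438965). *Ephb3* had decreased H3K4me2 over its 5′ end (9280 bp, chr16:21203906-21213185). *Ephb2*, a receptor of B-class ephrins, had decreased H3K4me1 in an intronic region of 3240 bp (chr4:136361846-136365085). *Ephb4*, the venous receptor of *Efnb2*, had 8 regions that sum to 12400 bp and a 5′-end region of 7120 bp, none of them decreased. *Epha2*, *Epha3*, *Epha7* and *Ephb1* had no decreased region either, with 8 to 74 regions each. *Dcc*, the netrin receptor and the longest member at 1092332 bp, had 95 regions that sum to 28480 bp. Its decreased H3K4me2 region was a 60-bp intronic region (chr18:72419726-72419785).

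Taken by role, decreased H3K4me2 was found at 6 of 22 ligand genes (10.4 at like region width) and at 7 of 20 receptor genes (9.49). Decreased H3K4me1 was found at 4 ligand genes (4.74) and at 4 receptor genes (4.62). The counts for H3K4me2 lay below those of like genes on both sides, and the split between ligands and receptors was close to even. By family, the count of genes with decreased H3K4me2 lay closest to that of like genes for the neuropilins and the robos (1 gene against 1.07 in each), and farthest below it for the Eph receptors. The plexins and the slits were the families with decreased H3K4me1 at more than 1 gene. With 1 to 12 genes a family, these counts are small.

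The 15 decreased H3K4me2 regions summed to 97280 bp, with a median width of 4800 bp and a range from 60 to 23200 bp, and 3 of them were narrower than 500 bp. The 10 decreased H3K4me1 regions summed to 45000 bp, with a median of 3620 bp and a range from 60 to 10000 bp, and 1 was narrower than 500 bp. More than 5 kb from a TSS of the gene lay 5 of the first and 7 of the second.

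The 5′-end regions of members were wide in general. Their median width was 6080 bp against 3640 bp for coding genes, and the excess lay downstream of the 5′ end, with medians of 3921 bp against 2166 bp, rather than upstream (1282 bp against 1147 bp). At 37 of 41 members (90.2%) the region reached farther into the gene than upstream of it, against 75.0% of coding genes. The 8 members whose 5′-end region was in the H3K4me2 list had a median width of 7900 bp (4800 to 23200 bp), and the 32 whose region was in neither list a median of 5390 bp (980 to 22140 bp). These ranges overlap, and all coding genes show the same order, with 4620 bp in the list and 3260 bp in neither.

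**Figure D5:**
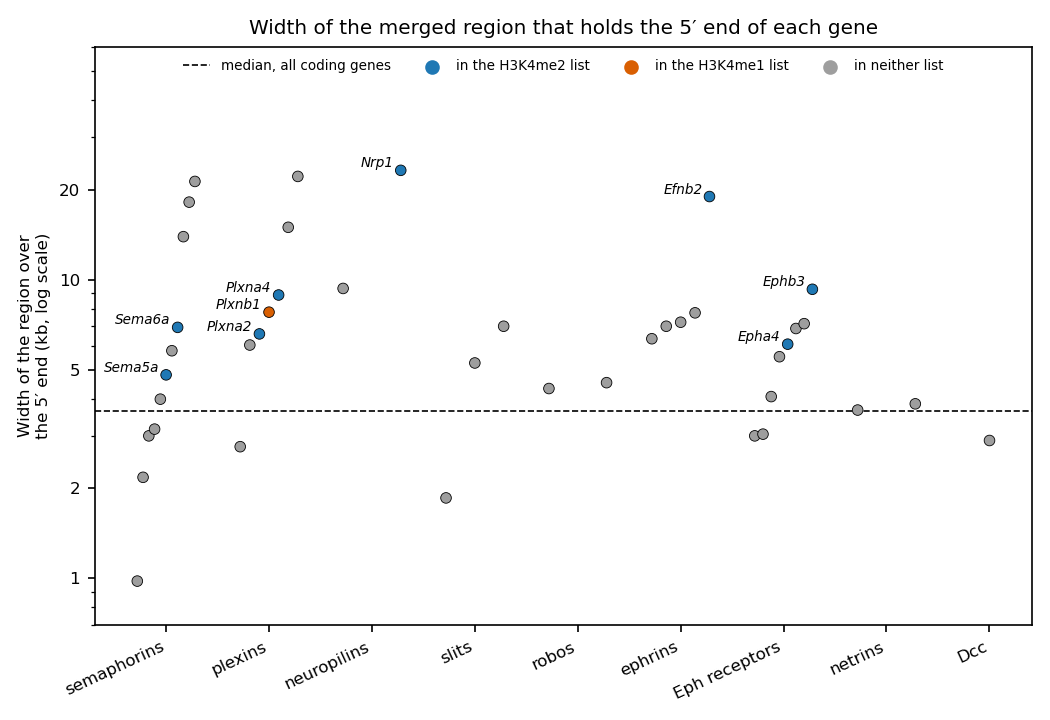
Width in kb, on a log scale, of the merged region that holds the 5′ end of each member, by family; blue regions are in the H3K4me2 list, the orange one (*Plxnb1*) is in the H3K4me1 list, grey ones are in neither, and the dashed line is the median of coding genes (3640 bp). *Nrp1* is the widest at 23200 bp, and grey points of similar width stand among the semaphorins and plexins (*Sema4c*, *Sema3f*, *Plxnd1*).

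In base composition, the 300 bases before the 5′ end of members had a GC content of 61.9% ± 7.98 (SD, n = 42) and a median of 17 CG dinucleotides. Coding genes with their 5′ end in a region had 58.3% and 16. For the 8 members with a decreased H3K4me2 region there, GC content was 66.6% ± 4.28 (SD, n = 8) with 19 CG dinucleotides, and for the other 34 it was 60.7% ± 8.27 (SD, n = 34) with 16. Short words that heart transcription factors are known to bind were searched for on both strands, AGATAA for the GATA family, GGAATG for the TEAD family and AGGTGT for the T-box family, none of which contains another. They were in 2 (4.76%), 6 (14.3%) and 8 (19.0%) of the 42 windows, against 8.21%, 12.9% and 12.3% of the windows of coding genes with their 5′ end in a region. Over all coding genes they were in 2582, 3081 and 3088 of 22361 windows. Among the 8 windows in decreased regions, the only match was GGAATG before *Efnb2*. In the middle 300 bases of the 22 decreased member regions of at least 300 bp, the words were in 1 (4.55%), 3 (13.6%) and 3 (13.6%), against 19.6%, 17.6% and 15.1% of all merged regions of at least 300 bp. Those 22 windows had a GC content of 51.4% against 46.3%. Most decreased regions are wide, and merged regions from 2000 to 4000 bp, from 4000 to 8000 bp and from 8000 bp had a GC content of 48.7%, 49.3% and 48.3%. AGATAA was in 17.0%, 16.1% and 13.8% of their windows. A match describes letters in a window and no binding site.

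Another 34 genes of the same families and of related cues and receptors were counted in the same way. A TSS lay in a region at 30 of them, decreased H3K4me2 was found at 7 (12.6 at like region width) and decreased H3K4me1 at 4 (3.63). Over all coding genes with a region, the shares were 28.7% and 7.08%. The genes with decreased H3K4me2 were *Plxnb3*, *Epha6*, *Ntng1*, *Unc5b*, *Unc5d*, *Neo1* and *Dscam*, and those with decreased H3K4me1 were *Sema4b*, *Sema5b*, *Unc5b* and *Neo1*. Over a TSS, H3K4me2 was decreased at 2 of the 30, *Ntng1* and *Unc5b*, against 29.2% of coding genes with a TSS in a region. *Unc5b* and *Neo1*, both receptors of netrin-1, had regions in both lists, as *Plxna4* and *Slit3* did among the members. The widest region of *Unc5b*, a netrin receptor of endothelium, spanned 42060 bp. In both sets of genes decreased H3K4me2 lay at fewer genes than at like region width, and the counts for H3K4me1 lay on either side of it.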

How the data were processed

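Reads of H3K4me1, H3K4me2, H3K4me3 and input libraries were processed by the authors. The submitters' processing notes name CASAVA 1.8.2, FastQC, Bowtie, Bowtie2, SAMtools and assembly mm9. The peak caller and the test behind the decreased lists are not given in the sources used here. The paper does state that both kinds of decrease were called at a threshold of the false discovery rate. Its count of regions with decreased H3K4me1 equals the 2730 of the list used here. For H3K4me2 the paper's count is lower than the 6699 of the list used here, a difference that could not be resolved. The authors called peaks, merged them over replicates and marks, and deposited 1 merged list and 2 lists of regions called lower in mutants, each with chromosome, start and end only. Depth per library is therefore unknown.

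Groups came from sample titles. Members and lists were chosen with earlier results of these data known. A region was given to a gene when it overlapped the gene's body or lay within 5 kb of a TSS in GENCODE vM1 (NCBIM37), and was called decreased on an exact match of coordinates. Genes were set beside other coding genes by deciles of summed region width, weighted by the number of members in each, and regions beside other regions by width class and place. The code for the weighting was checked on simulated calls that followed summed width, for made members drawn from the genes with the most marked sequence. That check cannot show that the weighting is adequate for these members. Place is by the gene's own TSS within 5 kb, then exon, then intron. *Efna5* has 2 models under its symbol, of which the longer was used, and *Draxin* is listed as *2610109H07Rik*. Members named with positions are those with a decreased region and the 3 with the most and the fewest marked bases. Sequences were read from NCBIM37. Printed windows lie outside untranslated regions, and *Sema6a* and *Dcc* were left out of the windows that could be printed. Windows behind the values of GC content, CG dinucleotides and words were used whether or not they touch untranslated regions. No replicate values exist in these lists, so no test was run. Alternatives changed the gene body, the TSS window, narrow regions, shared regions and the width measure. Python 3.11.15, NumPy 2.4.6 and Matplotlib 3.10.9 were used, and coordinates are 1-based.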

Additional observations from a re-analysis of the deposited data

How the results depend on the processing

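The members' counts were recomputed under alternatives to each step, which gave 78 values for 9 results, of which 65 stayed within 1.5 times a count or within the interval of a share and 13 moved further. With the gene body left out, only regions within 5 kb of a TSS were counted. Genes with decreased H3K4me1 then fell from 8 to 3, and the like-width share for H3K4me1 from 22.3% to 5.31%. The share of regions in the lists rose to 4.74% for H3K4me2 and 1.42% for H3K4me1, and the medians became 4 regions and 9090 bp. With only regions of at least 500 bp, the shares were 1.50% and 1.12% and the median number of regions was 13.5, and at 1000 bp they were 2.41%, 1.81% and 6, since fewer regions were counted by construction. With deciles of the widest region, the like-width share for H3K4me1 was 11.9%, below the members' 19.0%, so the members' place relative to like genes for H3K4me1 depends on the measure of width. For H3K4me2, members with a decreased region numbered 10 to 14 and the like-width share was 37.8% to 48.7% over the alternatives. With deciles of the widest region it was 43.1%, so its place just above the members' interval (upper bound 46.0%) depends on the measure of width too. That interval is for 13 members and was not recomputed where an alternative changed their number. With only regions of at least 500 bp, 10 members were called and the like-width share was 43.2%. The lists give no replicate values, so neither depth nor the spread between pools limits these counts in a way that can be measured, and the intervals cover counting error only. No paired analysis was possible because the lists hold no value per library.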

Other observations

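Genes that act inside the cell downstream of guidance receptors were counted in the same way, as 25 genes that include the slit-robo GTPase-activating proteins, the MICAL oxidases, collapsin response mediators, actin-binding ABLIM proteins, NCK adaptors and VAV exchange factors. All 25 had a TSS in a merged region, and their median summed region width was 45520 bp. Decreased H3K4me2 was found at 14 of them, against 46.1% of genes of like region width and 28.7% of coding genes. Over a TSS it was found at 10, against 29.2% of coding genes with a TSS in a region. That share was 36.4% and 38.8% in deciles 9 and 10 of summed region width. Decreased H3K4me1 was found at 5 of the 25 genes (5.92 at like region width). No interval was computed for these counts. The genes with decreased H3K4me2 over a TSS were *Srgap2*, *Mical1*, *Mical2*, *Dpysl3*, *Ablim1*, *Nck1*, *Nck2*, *Fyn*, *Abl1* and *Vav3*. For these genes the H3K4me2 count lay above that of like genes, whereas for the ligands and receptors it lay below (31.0% against 47.3%), and the difference between both sets was not tested.

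Both lists held regions of 3 of them, *Mical2*, *Ablim1* and *Vav2*, against 2.86% of coding genes, a share that takes no account of region width. Among coding genes with region widths like those of the 42 ligand and receptor genes, that share was 11.1%. The corresponding value for the genes counted here was not computed, so their count cannot be read as high for their region width. *Mical2*, which encodes an actin-oxidising enzyme abundant in muscle, had a widest region of 70000 bp and 17 regions that sum to 115020 bp. The widest decreased region of the 42 ligand and receptor genes, that of *Nrp1*, spans 23200 bp.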
